A study of Homo sapiens with 6 samples.

Results

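ETV4, ETV1 and ETV5, which make up the PEA3 group of ETS transcription factors, were read together with 7 genes of the DUSP, SPRY and SPRED families that restrain the ERK kinase cascade. The 7 were DUSP6, DUSP4, SPRY1, SPRY2, SPRY4, SPRED1 and SPRED2. All 10 genes were picked by gene symbol from a table of 26364 genes, with earlier results of these data known. Each passed the filter on low counts that kept 15611 genes. The RNA-seq libraries came from Ishikawa cells, an established line from an endometrial adenocarcinoma that responds to estrogen. The parental line (wild type for ETV4) and 2 clones in which ETV4 had been knocked out were each given 0.1% DMSO, the vehicle, or 10 nM E2 (17β-estradiol), after 5 days in hormone-depleted medium. Each line gave 1 library per treatment, so each knockout group holds 1 library from each of the 2 clones and each parental group holds a single library with no replicate check. The labels disagree on the length of treatment, with 8 h in the protocol and 1 h in the sample characteristics. The position edited in ETV4 is not given in the sources used here. Because the parental genotype was present as 1 line, what the knockout did and what set that line apart from the clones cannot be told apart.

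The ERK cascade passes a signal from receptor tyrosine kinases through RAS, RAF and MEK to the kinases ERK1 and ERK2. Active ERK raises transcription of the PEA3 factor genes and of its own inhibitors, so the messages of DUSP6, SPRY2, SPRY4 and the PEA3 genes are widely read as markers of ERK output. DUSP phosphatases remove phosphate from ERK itself, whereas the SPRY (Sprouty) and SPRED proteins act upstream, between receptor and RAF. PEA3 factors bind DNA at a GGAA core and have been described both as effectors of the ERK pathway and, in endometrial cancer cells, as partners of estrogen receptor α.

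The promoters of the inhibitor genes were searched for exact letter strings, among them CCGGAA, which extends the GGAA core that PEA3 factors bind. They are given here because 4 of these genes had lower levels in both clones. RefSeq start sites on GRCh38.p14 were matched by symbol for 7 of the 10 genes, with 16 start sites in all, some of them close enough for their windows to overlap. ETV4, ETV5 and DUSP4 had no entry. The 250 bases before each start were searched on both strands for the ETS core CCGGAA, the Capicua (CIC) octamer TGAATGAA, the AP-1 site TGANTCA and the cyclic AMP element TGACGTCA, the last of which is palindromic. The ETS core was in 5 of the 16 windows, against 14.5% of 35116 windows in the whole table. The windows belonged to starts 1, 3 and 4 of 6 for ETV1, start 2 of 2 for SPRY1 and start 1 of 3 for SPRY2. Those of ETV1 starts 3 and 4 overlap and hold the same site. The other motifs, in the letters searched, were in none of the 16. Of all windows 1.40% held TGAATGAA, 6.57% the AP-1 site and 1.65% the cyclic AMP element. Other forms of the CIC site were not searched, so its absence holds for TGAATGAA alone. The last 150 bases before the start are printed below, 5′ to 3′ on the strand of the gene, with the ETS core in capitals. SPRY1 is shown at the second of its 2 starts (chr4:123398236-123398385, plus strand) and SPRY2 at the first of its 3 (chr13:80341127-80341276, minus strand), the starts whose windows hold the core. DUSP6 (chr12:89352502-89352651, minus strand) and SPRY4 (chr5:142324248-142324397, minus strand) have 1 start each and no match to CCGGAA.
SPRY1: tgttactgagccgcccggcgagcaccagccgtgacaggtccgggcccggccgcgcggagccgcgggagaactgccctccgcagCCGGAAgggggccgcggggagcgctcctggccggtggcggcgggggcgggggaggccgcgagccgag
SPRY2: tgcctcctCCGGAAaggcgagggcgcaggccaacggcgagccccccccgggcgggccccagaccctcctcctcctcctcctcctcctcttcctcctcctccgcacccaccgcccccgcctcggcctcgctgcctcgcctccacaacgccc
DUSP6: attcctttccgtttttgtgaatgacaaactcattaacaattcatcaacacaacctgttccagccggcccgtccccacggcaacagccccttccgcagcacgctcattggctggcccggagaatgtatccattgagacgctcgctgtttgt
SPRY4: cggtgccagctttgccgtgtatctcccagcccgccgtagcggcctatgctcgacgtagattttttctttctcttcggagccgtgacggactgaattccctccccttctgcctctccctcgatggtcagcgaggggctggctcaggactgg
The 4 stretches differ in base composition, with a GC content of 80.7% for SPRY1, 76% for SPRY2, 60.7% for SPRY4 and 52% for DUSP6. A match describes letters in the window and not a bound site. GGAA alone was not searched, and its other strand, ttcc, occurs in the printed DUSP6 and SPRY4 stretches.

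The libraries held 28037392 to 36829479 counts each. The parental DMSO library stood apart in scaling, with a TMM factor of 0.899 against 1.01 to 1.04 in the other 5. Its gene levels deviated from the mean of the libraries with GC content at a Spearman rho of −0.29 across 14589 genes, and those of the parental E2 library at 0.28. The clone libraries lay between −0.24 and 0.23. Summed levels of 5 epithelial markers were 1958 to 2743 CPM in the clones and 2203 to 2924 CPM in the parental libraries, and those of 5 endometrial epithelial markers were 1290 to 1422 and 1215 to 1316 CPM. All 10 of those markers averaged 2 CPM or more. The 6 stromal markers summed to 46.4 to 74.3 CPM in the clones and 57.9 to 85.4 CPM in the parental libraries, with 2 of the 6 at 2 CPM or more. COL1A1 made up most of that sum. Of the 3 stromal markers tested none passed, all had negative differences between clones and parental line, and their median was −1.16. COL3A1 had 1.34 to 3.35 CPM in the clone libraries and 7.93 and 9.73 CPM in the parental ones (−2.09, SE 0.38, unadjusted p = 0.00105 and adjusted p = 0.117 in edgeR). PDGFRA had 0.102 to 0.251 CPM in the clones and 0.538 and 0.321 CPM in the parental line (−1.16, adjusted p = 0.397 in edgeR). Both were named after their values were seen, and both had all clone libraries under both parental ones, as DUSP6, SPRY1 and SPRY2 did. The 5 immune markers summed to 0.956 to 1.64 and 1.04 to 1.12 CPM with 1 of them at 0 throughout, and the 3 endothelial markers to 2.60 to 3.96 and 1.61 to 2.32 CPM. The part these markers had in the results below was not tested.

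Levels are given as CPM (counts scaled to library size with TMM factors), and the knockout effect is the log2 difference of the clones from the parental line in 1 fit over the 6 libraries. That fit treats the DMSO and E2 libraries of a line as independent, so its SE and p-values leave out what they share. ETV4, the targeted gene, had 3.41 CPM in clone 1 and 2.42 CPM in clone 2 with DMSO, and 2.95 and 2.77 CPM with E2. The parental line had 19.7 CPM with DMSO and 28.4 CPM with E2. Every clone library was therefore far below both parental libraries, at 14.8% ± 3.5 (SD, n = 2 clones) of the parental level with DMSO and 10.1% ± 0.45 (SD, n = 2 clones) with E2. ETV4 message was still counted in the clones, at 71 to 122 counts per library against 586 and 1063 in the parental line. The fitted difference was −3.04 (SE 0.21, adjusted p = 0.00868, edgeR quasi-likelihood F-test, Benjamini-Hochberg over all genes). ETV4 was the only one of the 10 genes to pass an adjusted p of 0.05, against 0.327% of all genes tested, and an unadjusted p below 0.05 was found for 6 of the 10 (11.4% of all genes). The ETV4 call rested on having both parental libraries. The ETV4 difference was −3.32 without the parental DMSO library and −2.75 without the parental E2 library. ETV4 passed in neither fit, each of which left 1 parental library and called almost no gene.

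The ETV4 paralogs were close to the parental level or split by clone. ETV5, the PEA3 factor with the highest level per length in these cells, had 51.7 and 43.5 CPM in clones 1 and 2 with DMSO, 50.5 and 44.9 CPM with E2, and 54.8 and 57.7 CPM in the parental line with DMSO and E2. The clone libraries all lay below the parental ones, but narrowly, and the difference of −0.24 (SE 0.13) did not pass the test (adjusted p = 0.495). ETV1 had 9.91 CPM with DMSO and 8.23 CPM with E2 in clone 1, 4.75 and 3.18 CPM in clone 2, and 7.60 and 4.94 CPM in the parental line. The 2 clones sat on either side of the parental line, so the fitted difference was 0.08 (SE 0.44, adjusted p = 0.946). No level of ETV1 or ETV5 in the clones was thus above the parental range in both clones. The clones left the parental ETV1 level in opposite directions by more than counting error, since clone 1 minus parental was 0.38 with DMSO (95% counting interval 0.14 to 0.63) and clone 2 minus parental was −0.67 (−0.99 to −0.37).

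**Figure D1:**
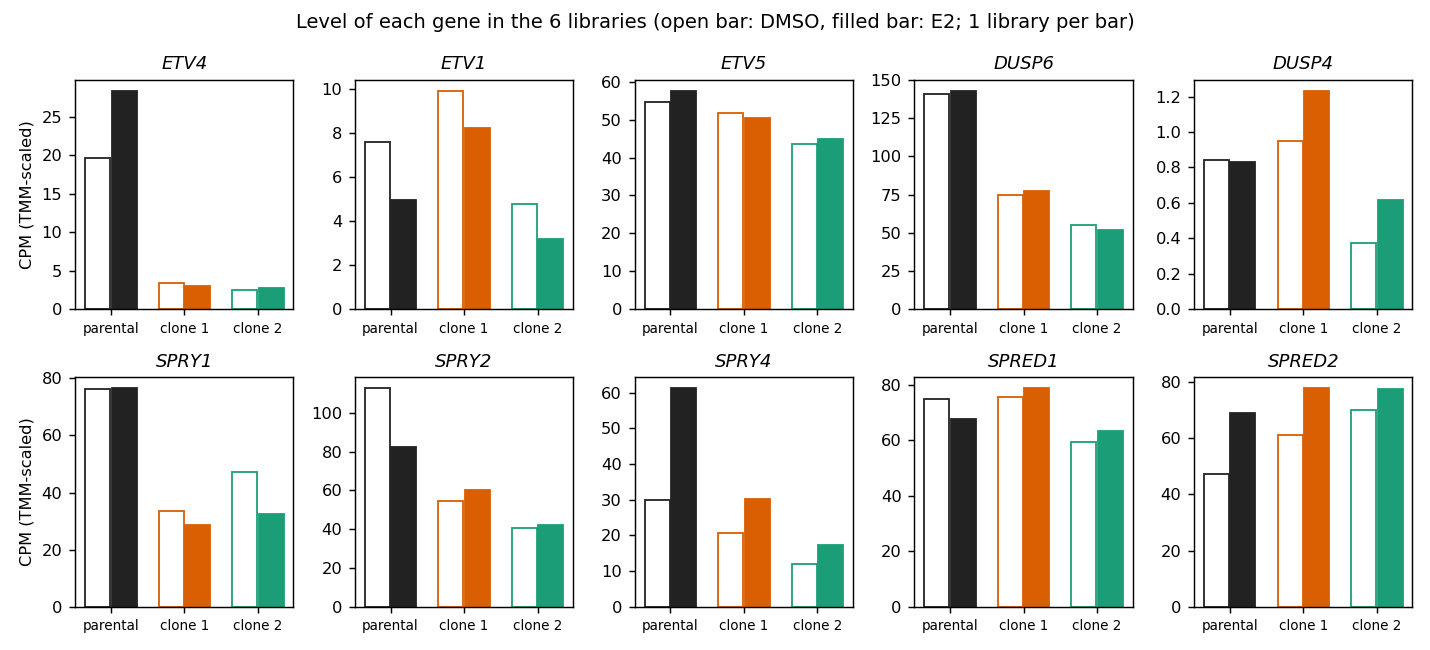
Level of each gene (CPM after TMM scaling, linear axis from 0) in the parental line and in knockout clones 1 and 2; open bars are DMSO, filled bars are E2, and each bar is 1 library. DUSP6 lies at 52.1 to 77.3 CPM in the clone libraries and at 141 and 143 CPM in the parental ones, whereas SPRED1 overlaps between lines.

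The 4 inhibitor genes with the largest shortfall in the clones were DUSP6, SPRY1, SPRY4 and SPRY2, with fitted differences of −1.13, −1.12, −1.13 and −0.97 on the log2 scale, none of which passed the adjusted threshold. DUSP6, the phosphatase that acts on ERK in the cytoplasm, had 74.7 and 55.2 CPM in clones 1 and 2 with DMSO and 77.3 and 52.1 CPM with E2. The parental line had 141 CPM with DMSO and 143 CPM with E2. The groups did not overlap, and the clones averaged 46.1% ± 9.8 (SD, n = 2 clones) of the parental level with DMSO and 45.2% ± 12.5 (SD, n = 2 clones) with E2. The difference had an SE of 0.19 and an adjusted p of 0.0987. After correction for transcript length and GC content DUSP6 passed narrowly (−1.17, adjusted p = 0.0494), when 0.756% of genes were called. With that correction SPRY1 (−1.03, adjusted p = 0.111), SPRY2 (−0.92, adjusted p = 0.0936) and SPRY4 (−1.21, adjusted p = 0.158) did not pass in edgeR.

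DUSP4, a nuclear MAP kinase phosphatase, was barely expressed. Its counts were 34 and 36 in clone 1, 11 and 18 in clone 2, and 25 and 31 in the parental line, with DMSO and E2 in that order. These come to 0.376 to 1.23 CPM in the clones around 0.840 and 0.828 CPM in the parental line. No difference between genotypes was detected at this depth (−0.08, SE 0.49, adjusted p = 0.949). The clones also split, with clone 2 minus clone 1 at −1.14 (SE 0.36).

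SPRY1, a Sprouty inhibitor of signalling from receptors to RAS, had 33.6 CPM in clone 1 and 47.1 CPM in clone 2 with DMSO, and 28.6 and 32.6 CPM with E2. The parental libraries were nearly equal, at 76.1 CPM with DMSO and 76.5 CPM with E2. All clone libraries were lower, with a difference of −1.12 (SE 0.18, adjusted p = 0.0746). SPRY2, of the same family, had 54.5 and 40.4 CPM in clones 1 and 2 with DMSO, 60.1 and 42.2 CPM with E2, and 113 and 82.2 CPM in the parental line with DMSO and E2. Its clone libraries were again all below the parental ones, by −0.97 (SE 0.21, adjusted p = 0.178).

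SPRY4, the third Sprouty gene, had 20.5 and 11.9 CPM in clones 1 and 2 with DMSO and 30.3 and 17.4 CPM with E2. The parental line had 29.9 CPM with DMSO and 61.2 CPM with E2. Within either treatment both clones were lower than the parental line, but clone 1 with E2 slightly exceeded the parental line with DMSO. The difference of −1.13 had the widest error of the 4 inhibitor genes (SE 0.29, adjusted p = 0.241). An annotated transcript within SPRY4, SPRY4-IT1, had 3 to 9 counts in the clones and 0 and 25 in the parental line with DMSO and E2. Since the use of strand in counting is not stated, reads shared between them could have been assigned to either.

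The SPRED genes, whose proteins bring the RAS inactivator neurofibromin to the membrane, had smaller differences. SPRED1 had 75.6 and 59.4 CPM in clones 1 and 2 with DMSO, 78.8 and 63.3 CPM with E2, and 74.8 and 67.7 CPM in the parental line. The lines overlapped (−0.04, SE 0.16, adjusted p = 0.919). SPRED2 had 61.2 and 69.9 CPM in clones 1 and 2 with DMSO, 77.7 and 77.5 CPM with E2, and 47.4 and 68.8 CPM in the parental line. The clones were above the parental line in each treatment, by 0.32 overall (SE 0.13), which did not pass the test (adjusted p = 0.431).

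In 5 of the 10 genes (ETV4, ETV5, DUSP6, SPRY1 and SPRY2) all 4 clone libraries lay below both parental libraries, a pattern seen in 7.82% of all genes tested. The reverse pattern was seen in 0 of the 10 against 8.53% of all genes. Scaled to total counts alone, ETV5 overlapped and 4 genes were left, and with the deposited normalized counts SPRY4 also separated, giving 6. Within DMSO, both clones were at least 1.5-fold below the parental line for ETV4, DUSP6, SPRY1 and SPRY2 (5.56% of all genes). Within E2 they were so for ETV4, DUSP6, SPRY1 and SPRY4 (2.75% of all genes). The median knockout effect over the 10 genes was −0.61, beside 0.01 over all genes tested. This median and the counts above include ETV4, the gene that was knocked out. ETV5 (−0.24), DUSP4 (−0.08), SPRED1 (−0.04), ETV1 (0.08) and SPRED2 (0.32) had smaller differences than ETV4 and the 4 inhibitor genes. The DESeq2 Wald test called 5 of the 10 genes lower, ETV4 and the 4 inhibitor genes, when it called 1.01% of all genes lower. Its adjusted p-values were 5.36e-05 for DUSP6, 1.80e-05 for SPRY1, 0.00357 for SPRY2 and 0.0119 for SPRY4. Of the 10 genes limma-voom called ETV4 alone, when it called 0.218% of all genes lower. The limma-voom adjusted p-values were 0.0952 for DUSP6, 0.0792 for SPRY1, 0.183 for SPRY2 and 0.217 for SPRY4.

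**Figure D2:**
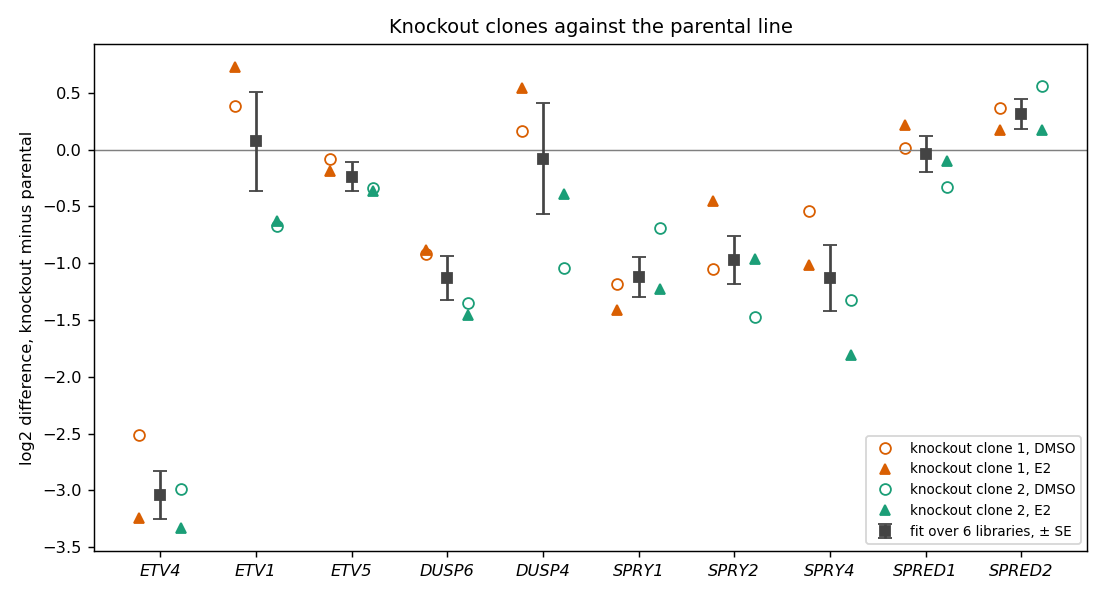
Log2 difference from the parental line for each gene; circles (DMSO) and triangles (E2) are single clone libraries against the parental library of the same treatment, and squares with bars are the fit over 6 libraries ± SE. The points of ETV4, DUSP6, SPRY1, SPRY2 and SPRY4 are all below 0, and those of ETV1 and DUSP4 fall on both sides according to clone.

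The size of the shortfall depended on the clone. Clone 2 lay below clone 1 in both treatments for 8 of the 10 genes, and SPRY1 was the reverse, against 35.1% of all genes below and 35.7% above. For DUSP6 clone 2 minus clone 1 was −0.50 (SE 0.14, adjusted p = 0.233), for SPRY2 −0.47 (SE 0.19, adjusted p = 0.391) and for SPRY4 −0.80 (SE 0.18, adjusted p = 0.149) in edgeR's fit with line and treatment. The largest gap relative to its error was in ETV1, at −1.21 (SE 0.19, adjusted p = 0.0651), followed in size by DUSP4 at −1.14 (SE 0.36, adjusted p = 0.292). None of the 10 passed the threshold between clones, against 0.871% of all genes. An unadjusted p below 0.05 was found for 5 of them, against 12.1% of all genes. DESeq2 called ETV1 (adjusted p = 0.00314) and SPRY4 (adjusted p = 0.0380), when it called 2.36% of all genes, and limma-voom called neither. Without clone 1 the knockout effect was −1.42 for DUSP6, −1.59 for SPRY4, −1.24 for SPRY2 and −0.97 for SPRY1. Without clone 2 it was −0.90 for DUSP6, −0.78 for SPRY4, −0.75 for SPRY2 and −1.30 for SPRY1. Either way ETV4 and these 4 genes passed the threshold, when 4.09% and 6.41% of all genes did, in fits whose error no longer held the spread between clones.

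E2, the ligand of the estrogen receptors, was compared with DMSO over the 3 lines. SPRY4 had the largest difference of the 10 genes, at 0.72 (SE 0.28), and SPRED2 was next among those higher with E2 in every line, at 0.34 (SE 0.12). Neither passed the threshold (adjusted p = 0.229 and 0.205 in the same edgeR fit), and none of the 10 did, against 1.13% of all genes. These 2 were also the only ones with an unadjusted p below 0.05, against 20.4% of all genes, and DESeq2 and limma-voom called none of the 10. SPRY4 went from 29.9 to 61.2 CPM in the parental line, from 20.5 to 30.3 CPM in clone 1 and from 11.9 to 17.4 CPM in clone 2. As log2 differences these were 1.03 (95% counting interval 0.92 to 1.15), 0.56 (0.42 to 0.70) and 0.55 (0.35 to 0.75). E2 was thus higher in 3 of 3 lines, a pattern seen in 27.8% of all genes tested, with the parental line ahead of both clones. With line as a block the adjusted p of SPRY4 was 0.0630, and with the block and the GC and length correction the difference was 0.62 with an adjusted p of 0.0204. Those fits called 2.46% and 9.84% of all genes. Without clone 2 it was 0.80 with an adjusted p of 3.59e-04, when 21.6% of all genes were called. SPRED2 went from 47.4 to 68.8 CPM in the parental line, from 61.2 to 77.7 CPM in clone 1 and from 69.9 to 77.5 CPM in clone 2. The parental DMSO library held its lowest level, and the E2 levels of the lines lay close together.

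For ETV4 the parental line went from 586 to 1063 counts, a difference of 0.53 on the log2 scale (95% counting interval 0.38 to 0.68), whereas clone 1 was at −0.20 (−0.62 to 0.20) and clone 2 at 0.19 (−0.29 to 0.67). The intervals cover counting error only, and 1 library per line and treatment leaves no replicate check. ETV1 was lower with E2 in all 3 lines, at −0.27 in clone 1, −0.57 in clone 2 and −0.61 in the parental line (fit −0.45, SE 0.41, adjusted p = 0.539). Of all genes tested 25.2% were lower with E2 in all 3 lines. ETV5 was at −0.03 in clone 1, 0.05 in clone 2 and 0.07 in the parental line. DUSP6 was at 0.05, −0.08 and 0.02 in the same order, so the gap between clones and parental line was much the same in both treatments.

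The E2 differences of SPRY1 and SPRY2 between single libraries varied by line, and the test of a difference in response passed for neither. SPRY1 was at 0.01 in the parental line but at −0.23 in clone 1 and −0.53 in clone 2. SPRY2 was at −0.45 in the parental line but at 0.14 in clone 1 and 0.06 in clone 2. In the clones alone none of the 10 genes passed the threshold by edgeR, DESeq2 or limma-voom, and none had an unadjusted p below 0.05 by edgeR, where 0.329% of genes passed and 8.7% had such a p. With clone as a block, which leaves 1 residual degree of freedom, SPRY1 fell by 0.39 (adjusted p = 0.0222) and SPRY4 rose by 0.55 (adjusted p = 5.45e-04), in a fit that called 15% of all genes. The difference in E2 response between genotypes was 0.56 for SPRY2 (SE 0.39, adjusted p = 0.659), −0.40 for SPRY1 (SE 0.34, adjusted p = 0.705), −0.48 for SPRY4 (SE 0.59, adjusted p = 0.803) and −0.56 for ETV4 (SE 0.40, adjusted p = 0.670). None of the 10 genes passed this test, nor did any gene (0%), and unadjusted p-values below 0.05 were found for 0 of the 10 and 7.62% of all genes. With line as a block 15.8% of all genes passed and none of the 10, with SPRY2 nearest at an adjusted p of 0.0712. DESeq2 called 0.186% of all genes, and its independent filtering left all 10 without an adjusted p. With the GC and length correction the parental E2 change was 0.78 for SPRY4, −0.30 for SPRY2 and 0.29 for SPRY1, so the gap of SPRY4 between parental line and clones (0.47 and 0.59) narrowed. The gap of SPRY1 widened, with clones 1 and 2 at −0.15 and −0.53, and its difference in response was −0.66 in that fit and did not pass.

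**Figure D3:**
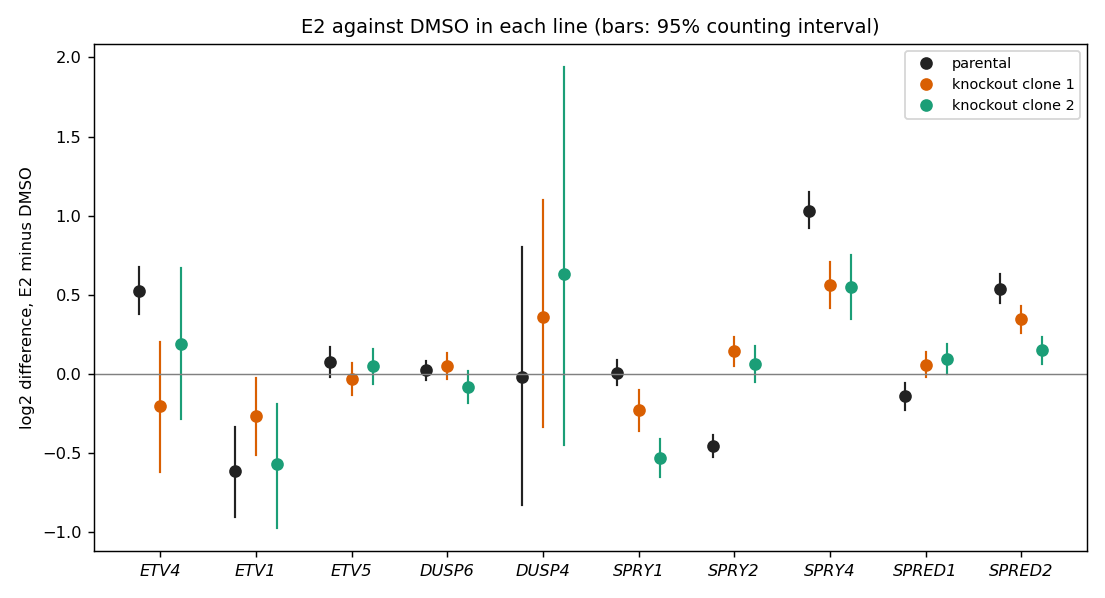
Log2 difference between E2 and DMSO in the parental line (black), knockout clone 1 (orange) and knockout clone 2 (green) for each gene; points are 1 library against 1 library and bars are 95% counting intervals. SPRY4 is above 0 in all 3 lines (1.03, 0.56 and 0.55), SPRY2 is below 0 in the parental line alone, and the bars of DUSP4 are wide for its low counts.

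Compared per kilobase of exon (GENCODE v29 models), the highest levels belonged to inhibitor genes. Mean levels over the 6 libraries were 21.5 CPM per kb for SPRY2, 19.9 for DUSP6, 16.2 for SPRY1 and 16.1 for SPRED2, followed by ETV5 at 11.7, SPRED1 at 8.99, SPRY4 at 5.73, ETV4 at 3.55, ETV1 at 0.834 and DUSP4 at 0.111 CPM per kb. Neighbours in this order from SPRY2 to ETV1 overlapped in their ranges over libraries, and DUSP4 lay below ETV1 without overlap. The ranges were 13.3 to 37.1 CPM per kb for SPRY2 and 11.5 to 31.5 CPM per kb for DUSP6. In the parental line ETV4 reached 7.03 and 10.1 CPM per kb with DMSO and E2, beside 12.6 and 13.3 CPM per kb for ETV5. In clone 1 ETV4 was at 1.21 and 1.05 CPM per kb with DMSO and E2, beside 1.29 and 1.07 CPM per kb for ETV1. In clone 2 ETV4 was at 0.865 and 0.987 CPM per kb, above the 0.616 and 0.412 CPM per kb of ETV1. ETV5 had the highest level of the 3 PEA3 genes in every clone library, at 10.04 to 11.9 CPM per kb.

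Likeness in pattern was measured by the Euclidean distance between log2 CPM values, each gene centred on its mean over the 6 libraries, among 12366 other genes averaging 2 CPM or more. The genes nearest to ETV4 were SLC38A8, TGFBI, ST6GAL1, TUBB4A and TNNT1. DUSP6 ranked 32, SPRY4 ranked 40, SPRY1 ranked 48 and SPRY2 ranked 61. ETV5 ranked 1451, SPRED1 ranked 4855, ETV1 ranked 7989 and SPRED2 ranked 10050. Nearest to DUSP6 were CLDN11, SPRY2, EMX2OS, KCNE3 and ALDH1L2, with SPRY2 at rank 2, SPRY1 at 180 and SPRY4 at 268. In likeness to DUSP6, ETV5 was at rank 882, SPRED1 at 3225, ETV1 at 7129, SPRED2 at 9677 and ETV4 itself at 11218. The distance between ETV4 and DUSP6 was 2.21 in either ranking. The distance weighs the size of the difference as well as its shape, and it rests on 6 libraries of 3 lines.

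The remaining genes of the pathway were read from 5 lists. Among 27 genes of the ERK cascade, from receptors to ERK, 0 passed the knockout test in edgeR (2 at an unadjusted p below 0.05), and the median was 0.14. FGFR2, a fibroblast growth factor receptor, had the largest difference at 0.63 (adjusted p = 0.206; 0.0178 in DESeq2), and EGFR, the epidermal growth factor receptor, was at 0.59 (adjusted p = 0.369). Of 17 other ERK feedback genes 15 were tested and 0 passed in edgeR (3 at an unadjusted p below 0.05), with a median of 0.07. DUSP8, a phosphatase of stress-activated MAP kinases, had 6.34 to 8.36 CPM in the clone libraries and 1.82 and 3.69 CPM in the parental ones, opposite in direction to DUSP6. Its difference was 1.45 (SE 0.24, adjusted p = 0.0861), and DUSP16 was at 0.45 (adjusted p = 0.289). The GC and length correction brought DUSP8 to 1.33 with an adjusted p of 0.0475, and DESeq2 gave it an adjusted p of 2.62e-05, calling 1 gene of this list and 1 of the cascade when it called 2.91% of all genes. limma-voom called none in either list. In 4 of these 15 feedback genes all clone libraries lay above both parental libraries (8.53% of all genes) and in 0 below (7.82%). The 4 were DUSP1, DUSP8, DUSP16 and ERRFI1, so the count includes DUSP8, described above as acting on stress-activated kinases.

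The genes listed as ERK targets were above the parental line in some cases and below it in others. Of 11 ERK target genes 10 were tested and 0 passed the knockout test in edgeR (2 at an unadjusted p below 0.05), with a median of 0.32. EGR1, an immediate early transcription factor, had 103 and 107 CPM in clones 1 and 2 with DMSO and 166 and 186 CPM with E2, against 53.4 and 109 CPM in the parental line. It was higher in both clones in each treatment, by 0.83 (SE 0.14, adjusted p = 0.0861), and by 0.84 with an adjusted p of 0.0214 after the GC and length correction. EGR3, of the same family, had 1.56 and 2.25 CPM in clones 1 and 2 with DMSO, 8.81 and 18.5 CPM with E2, and 0.437 and 3.58 CPM in the parental line. Its difference was 2.00 (SE 0.39, adjusted p = 0.132). DESeq2 called both EGR1 (adjusted p = 2.18e-05) and EGR3 (adjusted p = 9.02e-05) higher, and limma-voom neither, when DESeq2 called 1.90% of all genes higher. MYC and PHLDA1, named here after their values were seen, were below the parental line in both clones in each treatment. MYC, a growth-promoting transcription factor, had 111.5 and 71.3 CPM in clones 1 and 2 with DMSO, 121.0 and 84.5 CPM with E2, and 119.9 and 137 CPM in the parental line (−0.40, adjusted p = 0.498). PHLDA1 had 6.73 and 8.30 CPM in clones 1 and 2 with DMSO, 10.6 and 14.8 CPM with E2, and 9.65 and 16.8 CPM in the parental line (−0.38, adjusted p = 0.485). Neither separated the groups over all 6 libraries. Among 9 genes that control PEA3 factors 0 passed in edgeR (2 at an unadjusted p below 0.05), with a median of 0.16. CIC, the Capicua repressor that ERK relieves from PEA3 and SPRY genes, had 117 and 126 CPM in clones 1 and 2 with DMSO and 164 and 140 CPM with E2, against 52.0 and 110 CPM in the parental line. Its clone libraries were all above the parental ones, by 0.83 (SE 0.20, adjusted p = 0.225). The value was 0.58 with the GC and length correction and 0.45 without the parental DMSO library, whose CIC level was the lowest of the 6. ATXN1, which binds CIC, was at 1.01 (adjusted p = 0.260). DESeq2 called both CIC (adjusted p = 0.00861) and ATXN1 (adjusted p = 0.0385), and limma-voom neither.

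Of 10 reported PEA3 target genes 6 were tested, and VIM passed (adjusted p = 0.0131). VIM encodes the intermediate filament vimentin, and its mean of 1.03 CPM was under the minimum set for naming, so it was named after its values were seen. It had 1 count over the 4 clone libraries and 203 counts over the 2 parental libraries, at 3.63 and 2.54 CPM. Allowing for depth, the parental level was 373 times that of the clones, with a 95% counting interval of 66.3 to 14820 set by that single count. VIM was at −9.35 without the parental DMSO library and −7.54 without the parental E2 library. It passed in neither fit, and almost no gene did. The largest differences among targets with at least 2 CPM were 0.82 for the chemokine receptor gene CXCR4 (adjusted p = 0.459) and 0.35 for the membrane metalloprotease gene MMP14 (adjusted p = 0.635). The CXCR4 value was 1.67 without the parental DMSO library and 0.11 without the parental E2 library, whose CXCR4 level of 1.55 CPM was the lowest of the 6. The list's median was 0.26, beside −0.61 for the 10 PEA3 and feedback genes, which include the knocked-out ETV4.

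**Figure D4:**
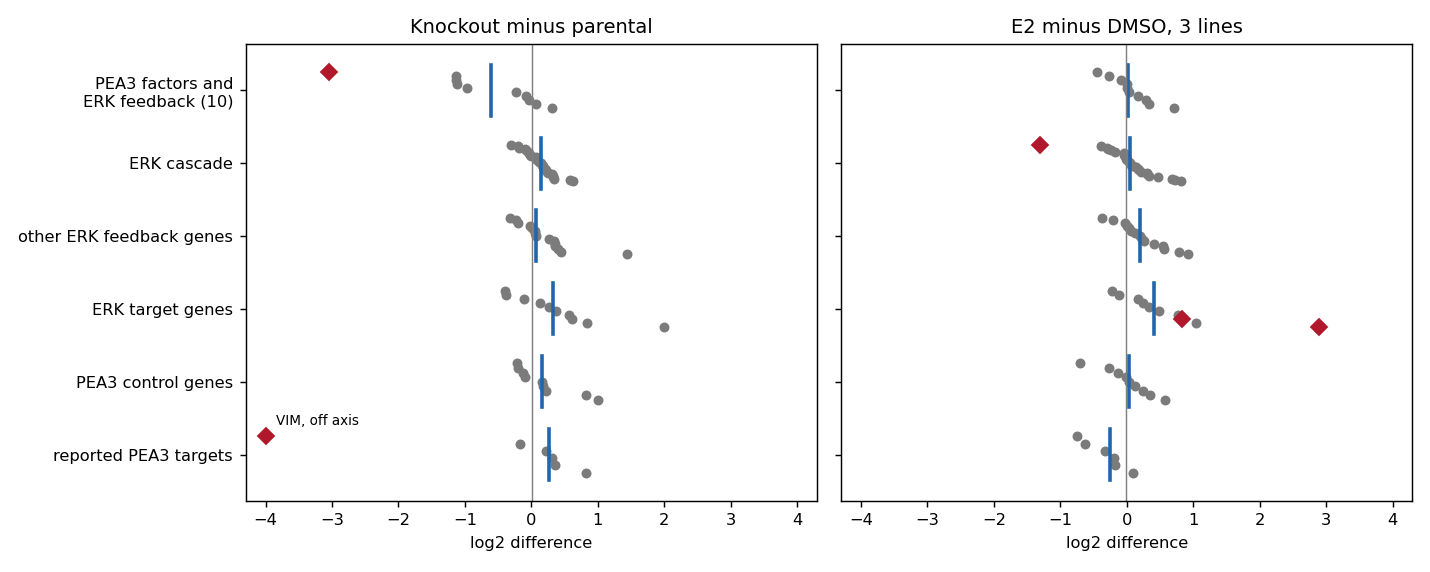
Log2 difference for every tested gene of 6 lists, knockout minus parental on the left and E2 minus DMSO on the right; red diamonds passed an adjusted p of 0.05, grey circles did not, blue bars are list medians and the grey line is the median of all genes tested. VIM, with 1 count in the clones, is drawn at the edge of the axis. The list of PEA3 factors and ERK feedback genes, which includes the knocked-out ETV4, has the only negative median in the left panel (−0.61).

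With E2, 1 of 27 ERK cascade genes passed in edgeR (4 at an unadjusted p below 0.05), and DESeq2, which called 7.14% of all genes, called FGFR2 and IGF1R. FGFR2 fell by 1.30 (SE 0.14, adjusted p = 0.0112), from 89.4 to 33.1 CPM in the parental line, from 115 to 58.0 CPM in clone 1 and from 143 to 51.5 CPM in clone 2. Of the 10 tested ERK target genes 2 passed in edgeR (4 at an unadjusted p below 0.05), and DESeq2 called PHLDA1 besides. EGR3 rose by 2.89 (SE 0.35, adjusted p = 0.0181) and EGR1 by 0.84 (SE 0.12, adjusted p = 0.0361). Of all genes tested 27.8% were higher and 25.2% lower with E2 in all 3 lines. FGFR2, EGR3 and EGR1 each had the same sign in 3 of 3 lines. Without the parental line their adjusted p-values were 0.0672 for FGFR2, 0.0908 for EGR3 and 0.169 for EGR1, and without clone 1 that of EGR1 was 0.0890. None of the other feedback genes passed (5 at an unadjusted p below 0.05, DUSP5 called by DESeq2), where DUSP5, a nuclear ERK phosphatase, was at 0.93 (adjusted p = 0.0772; 0.0469 with line as a block) and DUSP2 at 0.79 (adjusted p = 0.182). None of the PEA3 control genes passed (2 at an unadjusted p below 0.05, 0 in DESeq2), where DET1, part of a ubiquitin ligase that acts on ETV1, was at −0.71 (adjusted p = 0.172) and CIC at 0.57 (adjusted p = 0.182). None of the reported targets passed (1 at an unadjusted p below 0.05, 0 in DESeq2), where PLAU, the urokinase gene, was at −0.75 (adjusted p = 0.218) and its receptor gene PLAUR at −0.32 (adjusted p = 0.519). The list medians with E2 were 0.04 for the cascade, 0.20 for the other feedback genes, 0.41 for the targets of ERK, 0.03 for the control genes, −0.26 for the reported targets and 0.02 for the 10 PEA3 and feedback genes, against −0.02 for all genes.

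In the clones alone no list gene passed in edgeR or limma-voom, and DESeq2, which called 2.08% of all genes, called FGFR2, EGR1 and EGR3. Among genes averaging at least 2 CPM the largest differences per list were −1.24 for FGFR2 (adjusted p = 0.0672) and 0.54 for the receptor gene MET (0.632) in the cascade, 0.90 for DUSP5 (0.329) and 0.62 for DUSP2 (0.655) among feedback genes, 2.83 for EGR3 (0.0908) and 0.75 for PHLDA1 (0.482) among ERK targets, −0.68 for DET1 (0.597) and 0.31 for CIC (0.627) among control genes, and −0.92 for PLAU (0.564) and −0.31 for MMP14 (0.874) among reported targets. With clone as a block, in the fit that called 15% of all genes on 1 residual degree of freedom, EGR3 (2.77, adjusted p = 2.19e-42), FGFR2 (−1.24, adjusted p = 3.37e-18), DUSP5 (0.90, adjusted p = 4.60e-05), PHLDA1 (0.74, adjusted p = 9.44e-05), MET (0.52, adjusted p = 0.00229), PLAU (−0.94, adjusted p = 0.00261) and DET1 (−0.68, adjusted p = 0.0369) passed.

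No list gene passed the test of the difference in E2 response between genotypes in edgeR or limma-voom (3 at an unadjusted p below 0.05 in edgeR). Among genes averaging at least 2 CPM CXCR4 had the largest value, 1.56 (adjusted p = 0.617), with PLAU at −0.48 among reported targets. VIM, under that level and with 1 count in the clones, was at −1.79 (adjusted p = 0.737). Among control genes CIC was at −0.77 and ATXN1L, a relative of ATXN1, at −0.69. The cascade had IGF1R, the insulin-like growth factor receptor gene, at −0.98 and FGFR3 at −0.71. The feedback genes had DUSP8 at −0.69 and CBL, a ubiquitin ligase for receptors, at −0.64, and the ERK targets had CCND1, the cyclin D1 gene, at −0.81 and EPHA2 at −0.46. With line as a block, in the fit that called 15.8% of all genes on 1 residual degree of freedom, CXCR4 (adjusted p = 0.00121), IGF1R (adjusted p = 5.73e-04), CIC (adjusted p = 0.0175), CCND1 (adjusted p = 0.0269), ATXN1L (adjusted p = 0.0298) and CBL (adjusted p = 0.0454) passed.

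Between the clones, EPHA4, an ephrin receptor gene among the ERK targets, passed at −5.22 (SE 0.52, adjusted p = 0.0131), with 1.98 and 2.13 CPM in clone 1 against 0.0341 and 0.0683 CPM in clone 2. EPHA4 too was named after its values were seen, since its mean was 0.935 CPM, and its fitted value depends on the few counts of clone 2. Of the genes above 2 CPM none passed, with MMP14 nearest at 0.88 (adjusted p = 0.0862) and PLAUR at 0.52 (adjusted p = 0.462). EGR3 was at 0.84 (adjusted p = 0.214) and MYC at −0.58 (adjusted p = 0.171), FGFR3 at 0.74 (adjusted p = 0.286) and MET at −0.51 (adjusted p = 0.406). IL17RD, an inhibitor of fibroblast growth factor signalling, was at 0.54 (adjusted p = 0.320) and CBL at 0.40, and ATXN1L was at 0.34 (adjusted p = 0.555) and the ubiquitin ligase gene RFWD2 (COP1) at −0.27 (adjusted p = 0.563).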

How the data were processed

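The authors deposited a table of raw counts per gene and library and a table of normalized signal. Per the submitters' processing notes, HISAT2, SAMtools, Subread and DESeq2 were used with build hg19; versions, annotation and the use of strand are not given in the sources used here. Per the labels' protocols, libraries were poly(A)-selected with a stranded kit. The deposited normalized signal equalled the raw count divided by a DESeq2 size factor, which ran from 0.926 to 1.19. Raw counts were tested in R 4.3.3 with edgeR 4.0.16 (quasi-likelihood test, TMM, filterByExpr, Benjamini-Hochberg adjustment at 0.05). This kept 15611 genes, or 14881 for the clones alone, and 5767 of 26364 genes had no count.

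The knockout and E2 effects came from a model of genotype and treatment. It holds no term for line, so the DMSO and E2 libraries of a line enter as independent, unless a replicate block is named. The interaction used 4 groups, and the clone comparison used line and treatment. Standard errors divide the log2 coefficient by the root of its F statistic. Log2 ratios of 2 single libraries used a prior count of 2. Counting intervals are exact binomial 95% intervals of the 2 counts and cover counting error only. Nothing in the labels says that a line had several cultures per treatment. The p-values therefore measure the spread between these libraries and not that of repeat cultures. In fits without a term for line that spread includes the difference between clones, and part of it may be technical. Scripts were tested on simulated data. The clone numbers pair libraries, since the DMSO and E2 library of a number come from the same clone. The difference between clones correlated at 0.681 across 14881 genes between treatments.

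The genes and lists were chosen with earlier results of these data known. All 10 genes are named. From each list, genes past the threshold with a mean of at least 2 CPM are named, at most 6 per comparison, or else the 2 with the largest difference, and the 5 genes most like ETV4 and DUSP6. Alternatives were median-ratio scaling, other filters, DESeq2 1.42.0, limma-voom (limma 3.58.1), a correction for transcript length and GC content (GENCODE v29), a replicate block and leaving out libraries.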

Additional observations from a re-analysis of the deposited data

How the results depend on the processing

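Over 11 alternatives of the knockout effect, ETV4 and the 4 lower inhibitor genes kept their sign, and ETV4 passed in 9. The number of genes past the threshold was 51, but 454 with DESeq2 and 118 with the GC and length correction, and 1 to 996 with a line or library left out; of the 10 PEA3 and feedback genes 1 passed, but 5 with DESeq2, 2 with the correction and 0 to 5 with a line or library left out. For E2 it was 176 genes, but 1115 with DESeq2, 378 with the correction, 384 with the replicate block, 1536 with the block and correction together (chosen after seeing the data, 1 of the 10 genes), and 49 to 3353 with a line left out (0 to 1 of the 10). In the clones it was 49, but 310 with DESeq2, 2227 with the block (2 of the 10) and 3029 with block and correction (3 of the 10, SPRED2 added at 0.25, adjusted p = 0.0406). For the interaction it was 0, but 29 with DESeq2 and 2470 with the block, which rests on 1 residual degree of freedom; leaving out a clone could not be fitted. Between clones it was 136, but 236 without a filter (1 of the 10, ETV1), 63 with at least 10 counts in every library, 369 with DESeq2 (2 of the 10) and 327 with the correction (2 of the 10), and no block was possible because line is the factor tested. The cause of these shifts was not tested. For the knockout effect the block, line as a random effect, called 46 genes and the same 1 of the 10; the block changed no other call among the 10 than those given with the results. With a minimum mean of 2 CPM the calls of VIM and EPHA4 dropped out, leaving 0 in their lists.

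Signs changed for small values that passed no test. The knockout effect of ETV1 was −0.041 in limma-voom, −0.0084 with the correction, −0.041 with the block and −0.67 to 0.55 with a line or library left out; such fits gave −0.78 to 0.38 for DUSP4, −0.23 to 0.12 for SPRED1 and −0.15 to 0.71 for MMP14. For E2, SPRED1 was −0.0017 with median-ratio scaling, −0.0017 with DESeq2, −0.070 with the correction and −0.065 with block and correction; DUSP6 was −0.0042 in limma-voom, −0.016 with the correction, −0.0029 with the block and −0.020 with block and correction. With a line left out the E2 values ran from −0.050 to 0.066 for SPRED1, −0.053 to 0.036 for DUSP6, −0.038 to 0.36 for ETV4, −0.0043 to 0.036 for ETV5 and −0.22 to 0.10 for SPRY2. In the clones ETV5 was 0.0013 with median-ratio scaling, 0.0013 with DESeq2, 0.0066 with the correction and 0.011 with block and correction. In the interaction with the correction ETV5 was 0.0041 and DUSP6 0.025. The depth limits DUSP4 above all, at 11 to 36 counts per library.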
